A study of Mus musculus with 8 samples.

Results

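Sst interneuron nuclei are nuclei of GABA-releasing neurons that carry RNA for the peptide somatostatin. They were picked out here by their own counts in single-nucleus RNA sequencing of mouse forebrain. A nucleus was kept with at least 2 UMIs (unique molecular identifiers, which count RNA molecules) of Gad1 and Gad2 together and at least 4 of Sst. It also had at most 1 UMI of Pvalb, at most 1 of Vip, at most 1 of the glutamate transporters Slc17a7 and Slc17a6 together, and 0 of the glial genes Mog, Aqp4 and Cx3cr1. This gave 527 Sst nuclei, holding 4203079 UMIs, of 44762 nuclei in all and of 5125 GABA nuclei, which met the Gad, glutamate transporter and glial limits alone.

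The tissue was a cube of perilesional forebrain 2 mm wide from male Swiss Webster mice aged 10 weeks, an outbred stock, frozen before nuclei were extracted. Mice of the control group had neither procedure, those of the next 2 groups had BCAS alone or TBI (a traumatic injury of the brain) alone, and those of the last, BCAS+TBI, had both, with 2 libraries a group. The labels give BCAS as an abbreviation that the study's title ties to cerebral hypoperfusion. They state neither the time from surgery to collection, nor whether controls had a sham procedure, nor whether a library came from 1 animal or a pool. The p-values below therefore measure the spread between libraries, whatever separates them.

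Somatostatin interneurons arise in the medial ganglionic eminence under the transcription factors Lhx6 and Sox6, and in cortex many of them send axons to the distal dendrites of excitatory neurons, where they restrain incoming excitation. The class includes Martinotti cells, cells that contact other layers, and a rare long-range projecting type that also makes neuropeptide Y and nitric oxide synthase. In this tissue block, striatum, hippocampus and other forebrain regions could hold Sst neurons as well, and the labels do not say which region a cube took in.

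Sst (ENSMUSG00000004366) lies on the minus strand of chromosome 16, from 23889573 to 23890958 in the GRCm38 annotation. Its promoter holds a full cyclic AMP response element, the site of the transcription factor CREB, and it is shown because Sst chose the nuclei. The 30 bases around it, chr16:23890874-23890903 in GRCm38.p6 on the minus strand, read 5′ to 3′ with the element in capitals, from RefSeq:

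Sst: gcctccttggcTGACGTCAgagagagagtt

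The element TGACGTCA lay 48 to 41 bases before the RefSeq start site. The gene span given above ends farther upstream, at 23890958, so the element lies inside that span. Promoter windows ran from 250 bases before to 50 bases after a start site and were searched on both strands. The element was in 2.03% of all 27025 genes of the table, counting a gene with the element in any of its windows (1.79% of all 32851 windows). It was in 3.94% of the 6012 matched genes among those tested in Sst nuclei. Of the 20 genes that most set Sst nuclei apart from other GABA nuclei, described next, 15 had a promoter in the table and only Sst held the full element. The shorter TGACG, which the full element contains, was in 6 of these 15 genes (Sst, Crhbp, Trpc6, Man1a, Rbp4 and Rab3b), a share of 40.0% beside 38.4% of the tested genes.

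The nuclei carried the RNAs that the class is known for. Levels are counts per 1000000 UMIs (CPM), summed over the nuclei of a class in a library and given as mean ± SD of 8 libraries, and other GABA nuclei are the GABA nuclei outside the class. Genes of the same nuclei chose and describe the class, so these ratios are descriptions with no test. Sst itself was at 2361 ± 1270 in Sst nuclei and 50.7 ± 21.3 in other GABA nuclei. The 4 marker genes that the rule did not use were all higher in Sst nuclei in 8 of 8 libraries. Crhbp, which binds corticotropin-releasing hormone, was at 201 ± 69.4 against 25.8 in other GABA nuclei. Nxph1, a secreted ligand of neurexins, was at 2815 ± 553 against 1337. Col19a1, a collagen, was at 554 ± 78.6 against 252.5, and Moxd1, a monooxygenase-like protein, was at 133 ± 30.1 against 42.9. Crhbp had the highest ratio of these 4, while Nxph1 and Col19a1 were also high in Pvalb nuclei, where the highest library reached 2526 and 556. Pvalb nuclei were 164 GABA nuclei with at least 2 Pvalb UMIs and at most 1 of Sst and of Vip.

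Ranked by the ratio to other GABA nuclei with a pseudocount of 10 CPM, the leading genes after Sst were Lama4 (a laminin chain) at a ratio of 6.82, Elfn1 at 6.14 and Pdyn at 5.99. Elfn1 is a trans-synaptic protein known for shaping facilitating inputs onto these neurons, and Pdyn encodes prodynorphin. Crhbp had a ratio of 5.90, the cation channel gene Trpc6 5.14, and Grin3a, the GluN3A subunit of NMDA receptors, 5.13. Npy (neuropeptide Y) had 4.77, Trhde (an enzyme that degrades thyrotropin-releasing hormone) 4.51 and Man1a (a Golgi mannosidase) 4.46. The other protein-coding genes of the leading 20 were Rbp4, Rab3b, Klf5, Shisa6, Synpr, Satb1 and Cdh9, with ratios from 3.34 to 4.25, and 3 more were predicted or uncharacterised transcripts. Each of the 20 was higher in Sst nuclei than in other GABA nuclei in 8 of 8 libraries. Some were shared with a neighbouring class: Synpr (synaptoporin) reached 2355 and Elfn1 176 in the highest library of Vip nuclei, which were 266 GABA nuclei with at least 4 Vip UMIs and at most 1 of Sst and of Pvalb.

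**Figure D1:**
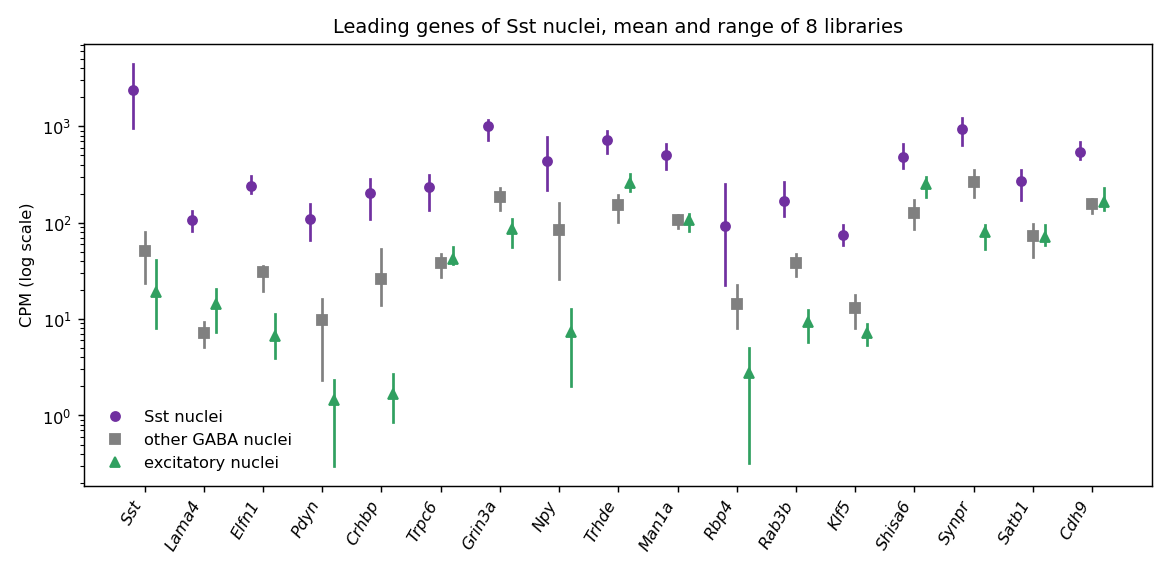
Levels of the 17 named leading genes in CPM on a log scale, in Sst nuclei (purple circles), other GABA nuclei (grey squares) and excitatory nuclei (green triangles). Symbols are means and bars the range of 8 libraries; Sst nuclei are highest on average for each gene, and Npy, Rbp4 and Sst have wide ranges.

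At the low end stood genes of other interneurons and of subcortical or striatal neurons. Adarb2, which marks interneurons of the caudal ganglionic eminence, was at 148 ± 91.5 CPM in Sst nuclei against 2666 in other GABA nuclei, a ratio of 0.0591. Meis2, typical of striatal and other lateral ganglionic eminence neurons, was at 51.1 ± 63.6 against 360, and Pbx3 at 30.5 ± 19.6 against 210. The other 7 of the lowest 10 were Vip, Foxp2, Egfr, Cadps2, Cacna2d1, Caln1 and Frem1. All 10 were below other GABA nuclei in 8 of 8 libraries, and Vip was limited by the rule.

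Most nuclei carried a transcription factor of the medial ganglionic eminence. Lhx6 was detected in 219 of 527 Sst nuclei (41.6%, 95% Wilson interval 37.4 to 45.8%) and Sox6 in 433 (82.2%, 78.7 to 85.2%). In excitatory nuclei, which should lack them, the shares were 0.197% and 5.44%. Other GABA nuclei had Lhx6 in 10.4% and Sox6 in 27.4%. At least 1 UMI of Lhx6 or Sox6 was present in 453 nuclei (86.0%), and 74 had neither. Nuclei with neither made up 10, 14, 12 and 11 of the Sst nuclei in control 1, BCAS 1, TBI 1 and BCAS+TBI 2, and 7, 4, 10 and 6 in control 2, BCAS 2, TBI 2 and BCAS+TBI 1. The former 4 libraries had shallower nuclei. Of 21 Sst nuclei with at least 2 UMIs of Meis2, 18 had neither Lhx6 nor Sox6, and 8 of the 21 were in TBI 1.

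Markers of known Sst subtypes divided the nuclei further. Intervals and shares here count nuclei with a UMI and cover counting error only, and the share in excitatory nuclei, given beside each, is the level that free RNA or shared use can reach. Reln was detected in 63.6% of Sst nuclei (15.3% of excitatory nuclei), Npy in 52.0% (4.90%), Crhbp in 45.9% (1.01%), Calb1 in 43.8% (23.2%) and Pdyn in 23.5% (1.38%). Other GABA nuclei had Reln in 32.4%, Npy in 13.8%, Crhbp in 7.44%, Calb1 in 16.3% and Pdyn in 3.52%. Median depths were 5277 to 10006.5 UMIs in Sst nuclei and 6435 to 11314 in excitatory nuclei, by library. With each nucleus of at least 3000 UMIs thinned to 3000, Npy was found in 37.2% of 514 Sst nuclei and 1.89% of excitatory nuclei. For Etv1 (16.5% against 31.3%) and Calb2 (5.69% against 5.07%) the share did not stand above that of excitatory nuclei, so those subtypes could not be told by detection. Hpse, a heparanase that marks Sst cells of cortical layer 4, was found in 9.49% of Sst nuclei against 0.394%, and Cbln4, a synapse organiser, in 14.0% against 4.43%.

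Few nuclei had the marker of the long-range type. Chodl, which defines it, was detected in 30 Sst nuclei (5.69%, 4.02 to 8.01%, against 0.246% of excitatory nuclei), between 1.96 and 9.72% by library. Of these 30 nuclei, 28 also had Npy and 16 had Nos1, the neuronal nitric oxide synthase. Nos1 was detected in 75 Sst nuclei (14.2%), against 8.98% of excitatory and 10.4% of other GABA nuclei. Detection of Nos1 alone therefore does not mark the long-range type. Tacr1, the substance P receptor (5.34% of excitatory and 9.53% of other GABA nuclei), was found in 40.0% of the Sst nuclei with Nos1 and in 8.41% of those without. Sst nuclei with an Npy UMI had a Crhbp UMI in 166 of 274 cases (60.6%), while 242 of all 527 nuclei had one (45.9%), and Reln was found in 60.6% of nuclei with Npy and 66.8% of those without. Depth differs between nuclei and raises the detection of any pair together, so these shares are descriptions.

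**Figure D2:**
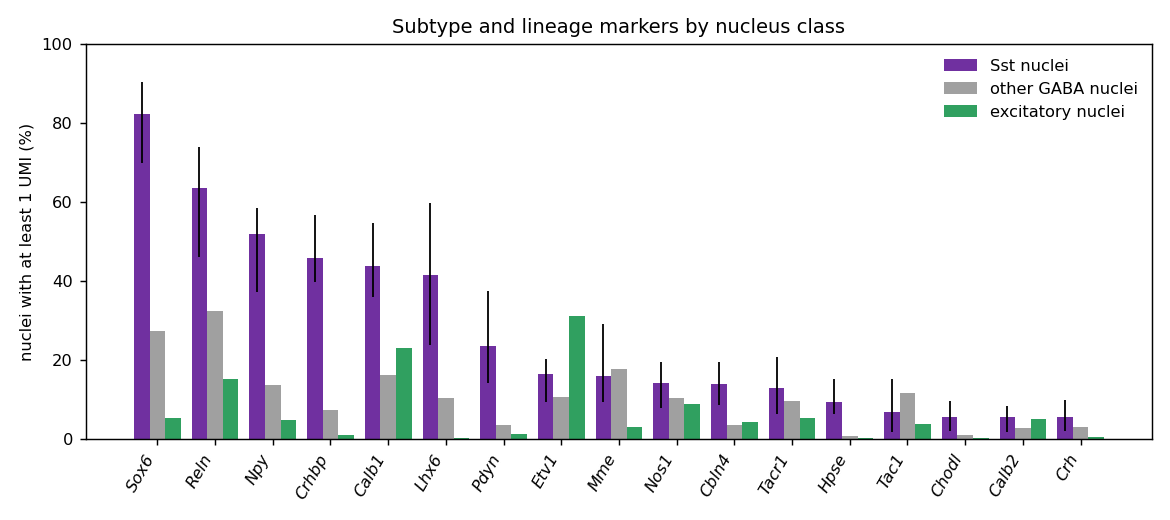
Percent of nuclei with at least 1 UMI of each marker in Sst nuclei, other GABA nuclei and excitatory nuclei, pooled over 8 libraries; thin lines span the lowest to the highest library for Sst nuclei. Sox6, Reln and Npy lead in Sst nuclei, while Etv1 is highest in excitatory nuclei.

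The depth of the libraries bears on every comparison. Total UMIs per library ran from 28118725 to 56135192 and fell into a lower set (set 1: control 1, BCAS 1, TBI 1 and BCAS+TBI 2) and a higher set (set 2: the other 4), so that each group had 1 library in each set. The labels name no batch. Median UMIs per Sst nucleus were 5277 to 6339 in set 1 and 7881 to 10006.5 in set 2, and mitochondrial UMIs were 0.959 to 1.72% and 0.611 to 0.792% of the total. With the set as a term, 1678 of 8049 tested genes (20.8%) differed between the sets in Sst nuclei (edgeR, adjusted p under 0.05), 7.99% of the genes higher and 12.9% lower in set 2 (975 to 1304 genes without each library in turn, the fewest without BCAS 2), and the leading axis of variation, with 42.6% of the variance, separated them. Library pairs shared 5 to 20 barcodes, at most 0.32% of the smaller library.

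Some peptide and secreted protein RNAs were among the genes higher in set 1. Npy averaged 614 CPM in set 1 and 261 in set 2 (log2 difference of set 2 from set 1 −1.17, edgeR adjusted p = 2.24e-05) and Rbp4, a retinol carrier, 154 and 31.8 (−2.17, edgeR adjusted p = 1.06e-06). Sst averaged 3435 and 1286, which is a description with no test, because the rule has a fixed minimum of 4 Sst UMIs. At that minimum, a nucleus of the shallower set needed a higher Sst level to be kept. Median Sst UMIs per Sst nucleus were 9 to 12 in set 1 and 7.5 to 9 in set 2. The most in a single nucleus were 119 to 374 by library in set 1 and 36 to 166 in set 2. The part of the threshold in the difference was not tested. Sox6 went the other way, at 702 and 1007 (0.58, edgeR adjusted p = 0.00126).

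The share of Sst nuclei among all nuclei did not differ between the arms beyond the spread of libraries. Sst nuclei were 1.01% (51 of 5056) and 1.42% (80 of 5643) of nuclei in control 1 and 2, 1.25 and 1.14% in BCAS, 1.07 and 1.34% in TBI, and 1.05 and 1.07% in BCAS+TBI. The 4 libraries with TBI averaged 1.13 ± 0.137% (SD, n = 4) and the 4 without 1.20 ± 0.174%, a difference of −0.0719 points (exact two-sided permutation test over 70 assignments, p = 0.514, adjusted p = 0.971 over 4 share tests). The 4 libraries with BCAS averaged 1.13 ± 0.0914% and the 4 without 1.21 ± 0.198% (exact permutation p = 0.457, adjusted p = 0.971). Groups overlapped in both comparisons. The smallest p that 4 against 4 libraries allow is 0.0286. The BCAS difference was 0.118 points in set 1 and −0.283 in set 2.

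As a share of GABA nuclei, Sst nuclei were 11.3% in both control libraries, 12.7 and 8.04% in BCAS, 11.5 and 9.62% in TBI, and 8.04 and 13.9% in BCAS+TBI. The arms again overlapped: 10.8 ± 2.52% with TBI against 10.8 ± 1.97% without (exact permutation p = 0.971, n = 4 each), and 10.7 ± 3.07% with BCAS against 10.9 ± 0.885% without (exact permutation p = 0.829), both with an adjusted p of 0.971. Outside the controls the set 1 library was the higher of each pair. A fixed UMI count can keep more or fewer nuclei according to depth, and the part of depth in these shares was not tested. Of 1095 nuclei with at least 4 Sst UMIs, 338 fell below 2 Gad UMIs, 32 to 75 per library in set 1 and 18 to 37 in set 2. Nuclei with at least 3000 UMIs were also thinned to 3000, which left out 12024 shallower nuclei. Sst nuclei were then 0.637 to 0.952% of the thinned nuclei in set 1 and 0.339 to 0.457% in set 2. As a share of thinned GABA nuclei they were 7.72 to 10.2% in set 1 and 3.25 to 4.41% in set 2. Fewer Sst neurons and less Sst RNA per neuron cannot be told apart by such counts. At the threshold itself, 75 nuclei had 3 Sst UMIs and 76 had 4, and the summed levels moved both ways. Crhbp was at 69.8 CPM in the former and 44.5 in the latter, and Npy at 101 and 46.3. Nxph1 was at 2725 and 2992, Col19a1 at 382 and 476, Moxd1 at 62.5 and 74.1, Sox6 at 432 and 613, Lhx6 at 34.9 and 66.7, and Reln at 560 and 904.

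**Figure D3:**
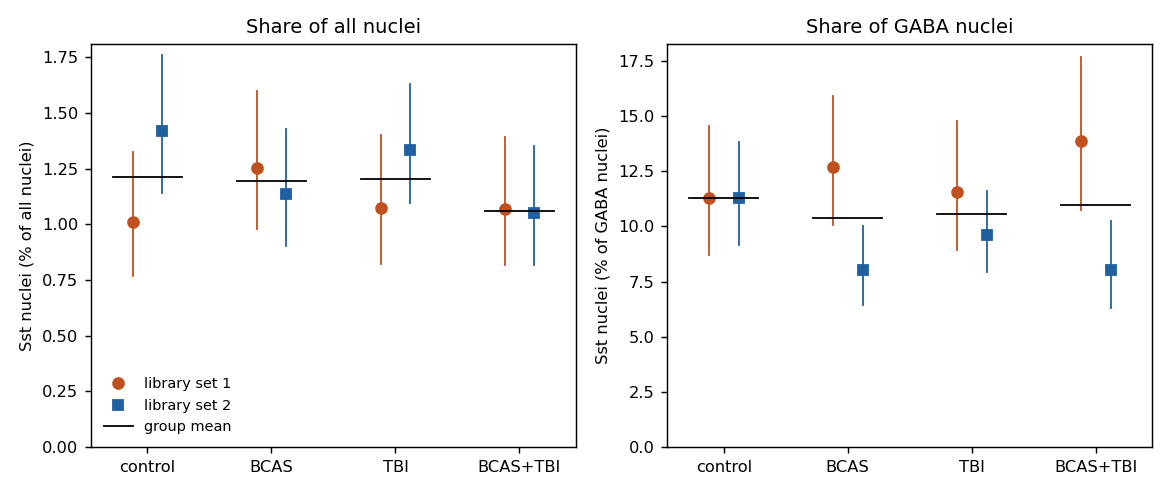
Sst nuclei as a percent of all nuclei (left) and of GABA nuclei (right) in each library, by group; circles are set 1 and squares set 2, thin lines are 95% Wilson intervals, black lines group means. The groups overlap in both panels, and on the right the circles lie above the squares outside the controls.

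No gene passed the test for either procedure in the comparison of groups alone. Counts were summed over the Sst nuclei of each library and tested in edgeR (quasi-likelihood test, 8049 genes, 4 groups of 2 libraries). For TBI averaged over BCAS, BCAS averaged over TBI, their interaction, each group against control, and BCAS+TBI against TBI, 0 genes passed an adjusted p of 0.05, a background of 0% in each. Unadjusted p-values under 0.05 numbered 71 to 87 per comparison, at most 1.08% of the genes. Evenly spread p-values would put a share of 0.05 of the genes there, so these counts of 0 do not show that no gene differed. With the library set as a term, the unadjusted p-values under 0.05 numbered 311 to 393. DESeq2 called 0 genes in these comparisons as well. The median standard error was 0.299 (log2) for the averaged effects, so modest changes were not detectable with these libraries.

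The genes with the smallest p-values, named by rule, were low to moderate in level. For TBI these were Tmem25 (log2 fold change 1.42 ± 0.436 SE), Dagla (0.79 ± 0.267), which makes the endocannabinoid 2-arachidonoylglycerol, and Eps8 (0.91 ± 0.310), an actin regulator. Each had an adjusted p of 1 in edgeR. Dagla was at 39.1, 29.7, 28.2 and 50.1 CPM in the control and BCAS libraries, and 65.1, 72.4, 57.9 and 60.5 in the TBI and BCAS+TBI libraries. Its 4 libraries with TBI were all above the 4 without, the same as for Tmem25 and Eps8 and for 0.634% of all genes tested (1.43% did not overlap in either direction). For BCAS they were Adamtsl1 (1.03 ± 0.307), Golim4 (0.81 ± 0.245), a Golgi protein, and Grm3 (−0.74 ± 0.235), a metabotropic glutamate receptor, also with adjusted p-values of 1. For BCAS against control, Ror2 (1.73 ± 0.467), a receptor for Wnt5a, and Ulk4 (1.78 ± 0.481), a kinase-like protein, came after Eya1. For BCAS+TBI against control they were Scyl2 (−1.10 ± 0.331), Ror2 (1.39 ± 0.486) and Tmem181c-ps, a pseudogene that may share reads with its related genes and was at 0 in both BCAS+TBI libraries and at 56.9 and 72.4 CPM in control. Ak5 (−0.97 ± 0.266), an adenylate kinase, and Mir670hg (−2.36 ± 0.658), a microRNA host transcript, led BCAS+TBI against TBI. Mir670hg was at 203.5 CPM in TBI 1 and at 16.8 to 46.2 in the other 7 libraries. Every gene named here for a comparison of 2 groups had an edgeR adjusted p of 1. With no filter on low counts (23506 genes, no set), edgeR called Tmem181c-ps for BCAS+TBI against control (adjusted p = 2.11e-08) and for both averaged effects (−3.98 for TBI and −4.12 for BCAS, adjusted p = 0.000786 and 0.000191). It also called Mir670hg for BCAS+TBI against TBI (−2.36, adjusted p = 0.0224).

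Adding the library set as a term lowered the common biological coefficient of variation from 0.263 to 0.118 and gave 3 called genes: Zfhx3, Eya1 and Adamtsl1. The set was an alternative listed with the other settings, not the main design. It gave 2 calls for the interaction (0.0248% of the genes tested), 1 for BCAS averaged over TBI and 1 for TBI against control (0.0124% each), and 0 in the other 4 comparisons, where unadjusted p-values under 0.05 numbered 311 to 330. With the set as a term, DESeq2 kept 1 of the 4 calls, Zfhx3 in the interaction.

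Zfhx3 (ENSMUSG00000038872, chromosome 8, 107942644 to 108961630, plus strand, GRCm38) encodes a large transcription factor with homeodomains and zinc fingers. It was at 21.3 and 9.49 CPM in control, 113 and 39.2 in BCAS, 136 and 38.7 in TBI, and 13.5 and 16.8 in BCAS+TBI. Both libraries of BCAS and both of TBI lay above all control and BCAS+TBI libraries, a split seen in 1.07% of all genes tested. With the set as a term, TBI against control was 2.32 ± 0.373 (log2 ± SE, edgeR adjusted p = 0.038). The interaction, the TBI effect with BCAS minus that without, was −4.42 ± 0.547 (edgeR adjusted p = 0.000882). Without the set the interaction was −4.81 ± 1.01 (edgeR adjusted p = 0.999), and with neither the set nor a filter on low counts it was −4.80 (edgeR adjusted p = 2.32e-06). TBI against control was then 2.58 (edgeR adjusted p = 0.00524).

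These Zfhx3 values rested on few nuclei and UMIs. The BCAS and TBI libraries held 29 to 50 Zfhx3 UMIs each and the other 4 held 5 to 8, so the gene passed the filter on low counts through the groups where it was high, and its p-values are to be read with that choice. Its UMIs came from 2 and 3 nuclei in control, 7 and 9 in BCAS, 9 and 12 in TBI, and 5 and 3 in BCAS+TBI. A single nucleus held 24 of the 50 UMIs in TBI 1, and another 17 of the 40 in BCAS 1. Without the nucleus with most Zfhx3 UMIs in each library, the interaction passed (edgeR adjusted p = 0.0241) and TBI against control did not (3.02, adjusted p = 0.13). Of the 24 Sst nuclei with at least 2 Zfhx3 UMIs, 16 had neither Lhx6 nor Sox6 and 11 had Meis2. Restricted to nuclei with Lhx6 or Sox6, Zfhx3 did not pass the filter on low counts and has no value. With at least 8 Sst UMIs required, the interaction was −3.55 and TBI against control 2.33, and neither passed (edgeR adjusted p = 0.332 for both). The 12 subcortical GABA markers summed to 130 CPM in BCAS 1 and 103 in TBI 1, and 24.4 to 49.8 in the other 6 libraries, with Sox14 and Nkx6-2 at 0 in all. Of these sums, Tac2 (the neurokinin B precursor) gave 53.6 CPM in BCAS 1 and 46.1 in TBI 1. A single nucleus held 16 of 19 Tac2 UMIs in BCAS 1, and another 12 of 17 in TBI 1. The part of nuclei with subcortical markers in the Zfhx3 result was not tested. Other GABA nuclei had 205 to 370 CPM of Zfhx3 in every library, with control libraries at 240 and 281. The interaction call was kept without each library in turn, with adjusted p-values from 0.000278 to 0.0425. The TBI against control call was lost without control 1, control 2, BCAS 1, BCAS 2, TBI 1 or TBI 2, at adjusted p-values from 0.0563 to 0.607.

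Eya1 (ENSMUSG00000025932, chromosome 1, 14168954 to 14310235, minus strand), a transcriptional coactivator with phosphatase activity, was lower in both groups with a single procedure. It was at 67.6 and 86.6 CPM in control, 19.7 and 31.1 in BCAS, 38.0 and 43.7 in TBI, and 88.7 and 57.2 in BCAS+TBI. The control and BCAS+TBI libraries were all above those of the procedures given alone, a split seen in 0.596% of all genes tested. With the set as a term the interaction was 2.44 ± 0.410 (edgeR adjusted p = 0.035). It did not pass without the set (2.43 ± 0.535, adjusted p = 0.999). Eya1 was detected in 5 to 16 nuclei per library. Among nuclei with Lhx6 or Sox6 the interaction was 2.57 (adjusted p = 0.0268). It was 1.95 (adjusted p = 0.0991) with at least 3 Sst UMIs required and 2.46 (adjusted p = 0.119) with no glutamate transporter UMI allowed. DESeq2 gave 2.46 (adjusted p = 1). Without the nucleus with most Eya1 UMIs in each library it was 2.62 (adjusted p = 0.0764). The call was also lost without control 1, control 2, BCAS 1, BCAS 2, TBI 2 or BCAS+TBI 1, at adjusted p-values from 0.12 to 0.423. In other GABA nuclei Eya1 was lower, at 10.1 to 31.7 CPM.

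Adamtsl1 (ENSMUSG00000066113, chromosome 4, 85514172 to 86428385, plus strand) encodes a secreted protein of the extracellular matrix related to the ADAMTS proteases. It was at 67.6 and 79.5 CPM in control and 46.1 and 86.2 in TBI. The libraries with BCAS had 95.9 and 199, and those with BCAS+TBI 166 and 104, so the 4 with BCAS were all above the 4 without (0.658% of all genes tested). With the set as a term, BCAS averaged over TBI was 1.07 ± 0.172 (edgeR adjusted p = 0.0388). In BCAS 2, 66 of 147 Adamtsl1 UMIs came from 1 nucleus, and in BCAS+TBI 1, 30 of 86. Without the nucleus with most Adamtsl1 UMIs in each library the value was 0.69 (adjusted p = 0.722), over 1.5 times smaller. DESeq2 gave 1.03 (adjusted p = 1). Among nuclei with Lhx6 or Sox6 it was 1.05 (adjusted p = 0.136). The call was kept without control 1 (adjusted p = 0.0301) and lost when any other library was left out, at adjusted p-values from 0.0774 to 1. In other GABA nuclei Adamtsl1 ranged from 67.0 to 103 CPM, and the 4 libraries with BCAS (73.2 to 103) overlapped the 4 without (67.0 to 85.8).

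Fign (chromosome 2, 63971507 to 64098038, minus strand), which encodes the microtubule-severing enzyme fidgetin, had the smallest p for the interaction without the set. It was at 0 and 7.12 CPM in control, 31.0 and 32.5 in BCAS, 78.7 and 37.5 in TBI, and 15.4 and 10.1 in BCAS+TBI. The interaction was −4.62 ± 0.938 (edgeR adjusted p = 0.999), and −4.60 with no filter on low counts (edgeR adjusted p = 0.00095). Its counts were low, with 0 to 8 UMIs in each control and BCAS+TBI library and 11 to 30 in each BCAS and TBI library, so it too passed the filter on low counts through the groups where it was high. Cacna2d1, an auxiliary calcium channel subunit, was at 32.0 and 33.2 in control, 62.0 and 55.5 in BCAS, 100 and 89.9 in TBI, and 44.4 and 43.7 in BCAS+TBI. TBI against control was 1.51 ± 0.303 for this gene (edgeR adjusted p = 1). The comparisons with control share its 2 libraries.

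**Figure D4:**
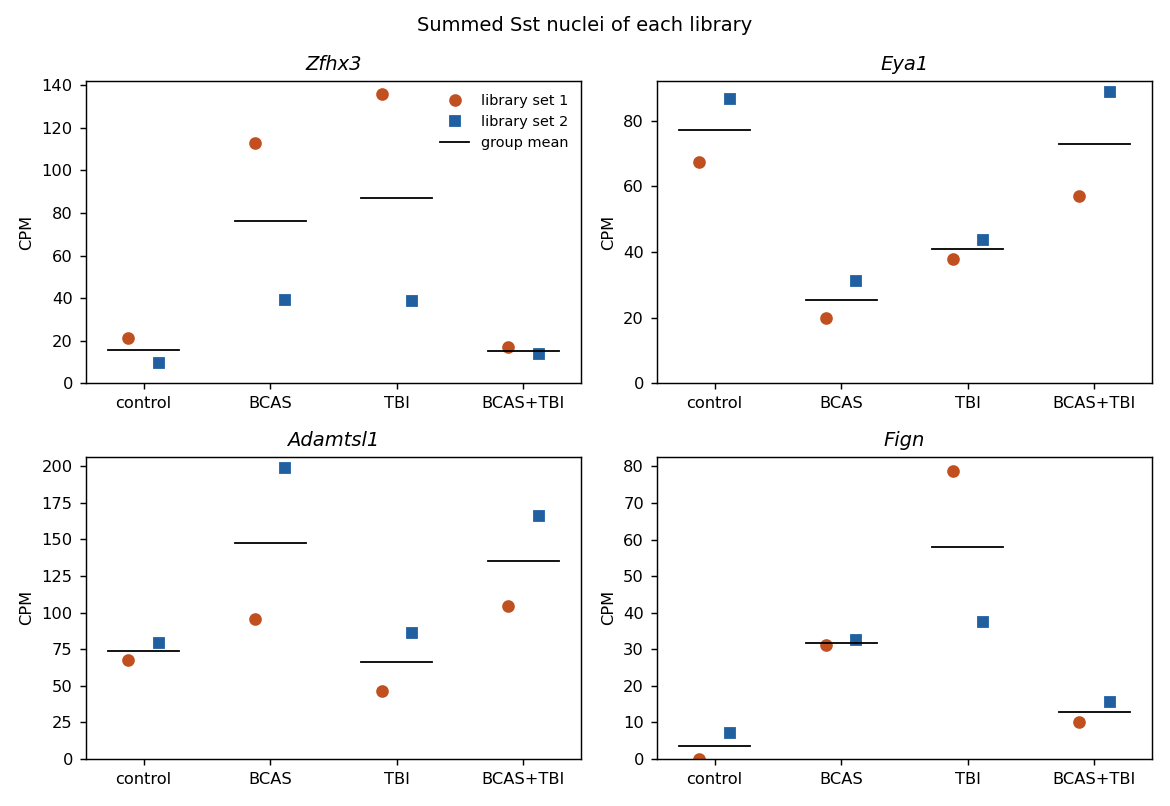
CPM of Zfhx3, Eya1, Adamtsl1 and Fign in the summed Sst nuclei of each library, by group; circles are set 1, squares set 2, black lines group means. Zfhx3 and Fign are higher in BCAS and TBI than in control and BCAS+TBI, Eya1 is lower there, and Adamtsl1 is higher in both groups with BCAS.

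No member of the lists of genes that define or run these neurons passed the test, with or without the set, so the following are values. Over all list members the edgeR adjusted p was at least 0.999 without the set and 0.53 with it. Of the 14 lineage transcription factors, 9 were tested and 7 had a lower value with TBI, with a median log2 fold change of −0.17 beside 0.01 for all genes, of which 51.0% were higher. Npas1, a repressor of the bHLH family, had the lowest value (−0.61 ± 0.269). It was at 42.7, 62.9, 47.9 and 51.4 CPM without TBI and 24.4, 37.5, 38.6 and 33.6 with it, with no overlap, as for 0.795% of all genes tested that were lower with TBI. The 9 tested genes of GABA synthesis, transport and chloride balance had a median of −0.12 with TBI and 0.11 with BCAS. Gad1, which makes GABA, was at −0.12 ± 0.213 with TBI, and Abat, which breaks it down, at −0.44 ± 0.241. The rule used Gad1 and Gad2 of this list, so the Gad1 value and the list medians are descriptions.

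Of 14 neuropeptide and nitric oxide genes, 8 had enough counts to be tested. With BCAS, 7 of the 8 had a higher value and the median was 0.43, beside 0.01 for all genes, of which 52.1% were higher. Sst is counted in that number and median and had a threshold in the rule, so they are descriptions. Sst was at 3193 and 961 CPM in control, 3510 and 1111 in BCAS, 2624 and 1299 in TBI, and 1774 and 4413 in BCAS+TBI. In every pair the set 1 library was the higher, and Sst had a threshold in the rule, so its BCAS value of 0.42 ± 0.459 is a description. The most Sst UMIs in a single nucleus were 374 in BCAS+TBI 2, 190 in control 1 and 166 in BCAS+TBI 1. They were 36 to 122 in the other libraries. Pdyn was at 99.6, 66.5, 106 and 66.2 without BCAS and 107, 138, 125 and 155 with it, with no overlap (as for 0.658% of all genes tested that were higher with BCAS) and a log2 fold change of 0.70 ± 0.236 (edgeR adjusted p = 1, and 0.53 with the set). Npy had 0.54 ± 0.407 with TBI and overlapped between the arms. Nos1 had 0.04 ± 0.417 with TBI and 0.43 ± 0.417 with BCAS. Penk, the enkephalin precursor, and Nxph2 had interactions of 3.10 ± 1.15 and 2.94 ± 1.03, Penk from 74 UMIs in all 8 libraries.

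The medians of the synaptic and channel lists lay between −0.05 and 0.18, over members with values of both signs. With BCAS, members ran from −0.22 to 0.55 for synapse genes, −0.28 to 0.39 for GABA-A receptor subunits, −0.29 to 0.30 for glutamate receptors and −0.48 to 0.48 for ion channels. The 25 tested of 26 synapse genes had medians of 0.03 with TBI and 0.07 with BCAS, and Elfn1 was at 0.02 ± 0.205 and 0.16 ± 0.205. The 10 tested GABA-A receptor subunits had medians of 0.02 and 0.18. The 15 glutamate receptor genes had medians of −0.05 and −0.05. Among 25 tested ion channel genes the medians were −0.01 and 0.10, and Kcnip4, a subunit that modulates A-type potassium channels, was at −0.39 ± 0.234 with TBI and 0.43 ± 0.234 with BCAS.

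Genes of activity, stress and low oxygen were mostly too low to test. Of 18 immediate early genes 6 were tested, with medians of −0.06 with TBI and −0.10 with BCAS, and Fos had 26 UMIs in all 527 nuclei. Egr1 was at −0.98 ± 0.498 with BCAS, from 69 UMIs. Of 20 injury and stress genes 7 were tested, with medians of 0.12 and 0.13, and the injury markers Atf3 and Sprr1a had 0 UMIs in the class. Of 13 hypoxia genes 5 were tested, with medians of 0.14 and −0.10, and Vegfa was at 0.12 ± 0.350 and −0.10 ± 0.352. An absence of calls at these counts does not show that the genes did not differ.

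**Figure D5:**
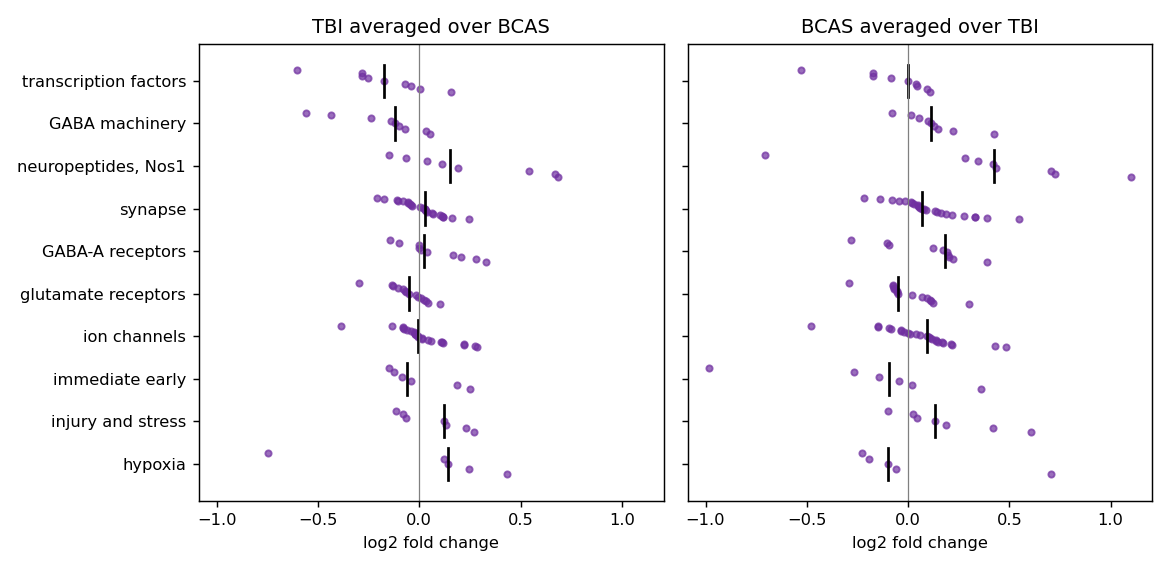
Log2 fold change of each tested member of 10 gene lists for TBI (left) and BCAS (right), each averaged over the other procedure; points are genes, spread vertically in order of value for visibility, and black bars are list medians. Members of most lists lie on both sides of 0 and none passed the test.

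Markers of other cells were present at levels that differed between lists. Among these markers the rule limited Slc17a7, Slc17a6, Pvalb and Vip, and excluded Mog, Aqp4 and Cx3cr1. Excitatory markers summed to 434 to 611 CPM over 12 genes and were highest in the TBI libraries (547 and 611). Astrocyte markers summed to 71.1 to 148, with Aqp4 at 0 by the rule, and were highest in BCAS+TBI (116 and 148). Oligodendrocyte markers summed to 102 to 192, microglia markers to 27.3 to 76.0 and vascular markers to 9.49 to 39.5. Sums were higher for Pvalb markers (522 to 1064 over 7 genes) and oligodendrocyte precursor markers (330 to 472 over 6). Striatal markers summed to 241 to 440, and Vip and Lamp5 markers to 58.15 to 357, over 9 genes each. Oligodendrocyte markers were 158 to 192 in set 1 and 102 to 117 in set 2. The part of all these markers in the results was not tested.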

How the data were processed

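Single-nucleus libraries were deposited as matrices of raw UMI counts (genes by barcodes), 1 for each of the 8, and the file headers name Cell Ranger 7.0.0 as their source. The submitters' processing notes name Seurat and the builds GRCm38 and mm10 without a role, and whether the counts include intronic reads is not given in the sources used here. Symbols and Ensembl IDs are those the files pair, gene positions are from GENCODE for GRCm38, and promoters from RefSeq GRCm38.p6.

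Of 53390 barcodes, 44762 had at least 1000 UMIs, 300 genes and at most 5% mitochondrial UMIs. Members and gene lists were chosen with earlier results of these data known. Doublets were handled by the marker limits alone, with no doublet caller, and no Sst nucleus exceeded 3 times the median UMIs of its library's Sst nuclei. Excitatory nuclei had at least 4 UMIs of Slc17a7 and Slc17a6 and 0 of Gad1, Gad2 and the glial genes.

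Counts were summed over the 51 to 96 Sst nuclei (281260 to 842648 UMIs) of each library and fitted in edgeR 4.0.16 (R 4.3.3) with TMM scaling, filterByExpr at a minimum count of 10, a term for the 4 groups and all 8 libraries in the quasi-likelihood test, two-sided, with Benjamini-Hochberg adjustment over 8049 genes at 0.05. The statistics were tested on simulated data. DESeq2 1.42.0 was an alternative. Shares were compared by exact permutation in Python 3.11.15. Named genes were up to 8 per comparison past the threshold without overlap between the arms (for the interaction, with no such condition), otherwise the 3 with the smallest p, without predicted and mitochondrial genes; members of fixed lists, and the 20 leading and 10 lowest genes, could also be named. Levels are unscaled CPM, and TMM factors were 0.95 to 1.06. The replicate numbers do not pair libraries: deviations of replicate 1 correlated at 0.387 to 0.445 among control, BCAS and TBI and at −0.428 to −0.474 with BCAS+TBI. Some genes of the lists are not reported here singly.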

Additional observations from a re-analysis of the deposited data

Results flagged for a closer look

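For 92 sets of 4 libraries (the shares and the named genes, with and without each procedure), Dixon's test was applied, and 7 held a library past its 95% critical value. Chance flags about 1 in 20 such sets. TBI 2 had the highest share of Sst nuclei among libraries with TBI, at 1.34% against 1.05 to 1.07%. As a share of GABA nuclei, its Sst nuclei were the lowest among libraries without BCAS, at 9.62% against 11.3 to 11.5%. BCAS 1 stood apart for Ulk4 among libraries with BCAS, at 73.3 CPM against 30.3 to 34.7. TBI 1 stood apart for Mir670hg, the host transcript of a microRNA, at 203.5 CPM against 16.8 to 42.5 in the others with TBI and 28.5 to 46.2 in the others without BCAS.

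Tmem181c-ps, a pseudogene whose reads may be shared with its related genes, was at 51.6 CPM in TBI 1 and at 0 in the others with TBI, and at 27.1 in BCAS 2 against 0 to 2.82 in the others with BCAS. Control libraries had 56.9 and 72.4. Other GABA nuclei showed the same split of libraries, with 45.2 and 63.7 in control, 1.39 and 29.8 in BCAS, 40.7 and 1.15 in TBI, and 1.06 and 1.26 in BCAS+TBI. In BCAS+TBI, 0 of 815886 Sst UMIs allow up to 3.68 CPM (3 counts over the group). Libraries at or near 0 were found in every group but control, and what sets them apart was not tested.

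The edgeR interaction test passed for Zfhx3 (−4.42) and Eya1 (2.44) with the library set as a term and, at the same filter on low counts, not without it (adjusted p = 0.999 for both). Zfhx3 passed the filter on low counts through the BCAS and TBI libraries, where it was high. The Eya1 call was lost with DESeq2 (adjusted p = 1) and without each of 6 libraries.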

How the results depend on the processing

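None of the 4 share comparisons passed under any of 14 alternatives each, but the design leaves little room to pass, and signs turned. Over only the nuclei with at least 3000 UMIs, thinned to 3000, the BCAS difference was 0.0574 points of these nuclei and 0.667 of the GABA nuclei among them. With at least 8 Sst UMIs the TBI difference was 0.0386 and 0.885. With no glutamate transporter UMI the BCAS difference of GABA nuclei was 0.163. Without each library in turn, differences of GABA nuclei ran from −1.09 to 0.852 for TBI and −1.34 to 0.607 for BCAS, and those of all nuclei from −0.14 to −0.00064 and −0.149 to −0.0131. The 7 counts of changed genes were 0 in the fit without the set and remained 0 with DESeq2, RLE size factors, a minimum count of 30, thinned totals, other thresholds on Sst, UMIs or glutamate transporters, only nuclei with Lhx6 or Sox6 (chosen after seeing the data), and without each library in turn. Fits of only the groups compared, made for the 4 comparisons of 2 groups, gave 0 as well. With the replicate block they were also 0 in all 7; the labels do not say that replicate numbers pair libraries. The library set gave 1 gene for BCAS averaged over TBI, 2 for the interaction and 1 for TBI against control. No filter on low counts gave 1 for TBI averaged over BCAS, 1 for BCAS averaged over TBI, 4 for the interaction, 6 for TBI against control, and 1 each for BCAS against control, BCAS+TBI against control and BCAS+TBI against TBI; the cause was not tested.

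With the set as a term (alternatives chosen after seeing the data), DESeq2 gave 0 for BCAS averaged over TBI, 1 for the interaction and 0 for TBI against control. At least 3 Sst UMIs gave 4 for TBI and 2 for BCAS, each against control, and at least 8 gave 4 for the interaction and 1 for BCAS against control. No glutamate transporter UMI gave 5 for BCAS averaged over TBI, 2 for TBI and 1 for BCAS, each against control, and 6 for BCAS+TBI against TBI. Only nuclei with Lhx6 or Sox6 gave 0 for BCAS averaged over TBI, 1 for the interaction and 0 for TBI against control. Leaving out each library in turn, with the lone library of a group assumed to vary like the others, gave 0 to 8 for TBI averaged over BCAS, 0 to 2 for BCAS averaged over TBI, 1 to 4 for the interaction, 0 to 4 for TBI, 0 to 2 for BCAS and 0 to 9 for BCAS+TBI, each against control, and 0 to 11 for BCAS+TBI against TBI. The extremes of 8, 9 and 11 came without BCAS+TBI 1. The 1678 genes different between sets became 975 to 1304. No called value changed sign. Depth limits the low genes: 4203079 UMIs over 8 libraries left only 6 of 18 immediate early and 7 of 20 injury genes to test.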

Other observations

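Some genes of other interneurons had most of their UMIs in a library from a single nucleus. Adarb2 had an interaction of −2.36 ± 0.928 (log2 ± SE, edgeR adjusted p = 0.999), and in BCAS 2 a single nucleus held 229 of its 244 UMIs. Ndnf, a marker of neurogliaform cells, had an interaction of 3.62 ± 1.24 (edgeR adjusted p = 0.999), and a single nucleus held 19 of 24 UMIs in BCAS+TBI 1. Tac2, the neurokinin B precursor, had an interaction of −6.08 ± 2.51 (edgeR adjusted p = 0.999, and 0.00838 with no filter on low counts) from 46 UMIs. BCAS 1 held 19 of them, TBI 1 held 17 and each other library 0 to 3. Tac2 thus passed the filter on low counts through the libraries where it was high, and its p-values are to be read with that choice. A single nucleus held 16 of its 19 UMIs in BCAS 1, and another 12 of 17 in TBI 1. Meis2 had 75 UMIs in 13 nuclei of TBI 1, and 4 to 21 UMIs in 1 to 6 nuclei of each other library.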
